A study of Mus musculus with 14 samples.

Results

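T-box transcription factors share a DNA-binding domain, the T-box, and act as activators or repressors of transcription in many developing organs. In the early limb bud, Tbx5 is required for forelimb initiation, Tbx4 is its counterpart in the hindlimb, Tbx2 and Tbx3 encode repressors with roles along the margins of the bud, and Tbx15 and Tbx18 are expressed in the mesenchyme. Tbx1, Tbx19 and Tbx20 are best known from the pharyngeal region, the pituitary and the heart, respectively. The 9 genes Tbx1, Tbx2, Tbx3, Tbx4, Tbx5, Tbx15, Tbx18, Tbx19 and Tbx20 were taken by symbol from the 23284 symbols counted in each forelimb bud sample, and all 9 were found. A further 8 T-box family genes in the same files (T, Eomes, Tbr1, Tbx6, Tbx10, Tbx21, Tbx22 and Mga) were read alongside them.

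The RNA-seq addressed which transcripts depend on SMAD4, the shared effector of BMP and TGFβ signal transduction, during the onset of limb bud development and early outgrowth. Forelimb buds came from 30-somite embryos, termed E10.0, and 35-somite embryos, termed E10.5, of the NMRI strain. Wild types were Smad4+/+ PrxCreT/+ (n=3 per stage), so that the controls carried the Cre transgene as well. Mutants were Smad4Δ/Δc PrxCreT/+ (n=4 per stage), with 1 constitutively inactive Smad4 allele and 1 allele inactivated by Cre under the Prrx1 limb enhancer. This Cre acts in the mesenchyme, and the ectoderm of the mutant buds therefore kept the conditional allele intact. Each sample pooled both forelimb buds of 1 embryo. As whole buds were sequenced, fewer cells of a type and less RNA per cell cannot be told apart.

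Between 34066930 and 61691258 reads per embryo were counted on genes. Smad4 itself had 152 to 169 CPM (read counts scaled to the normalized library size) in the 6 wild-type embryos and 32.9 to 45.9 CPM in the 8 mutant embryos, and its log2 fold change was -2.01 at the earlier and -2.16 at the later stage. The 8 limb bud mesenchyme markers summed to 1399 to 1922 CPM, and 4 of them (Lhx2, Prrx1, Prrx2 and Twist1) were called lower in mutants at both stages, while Pdgfra was called higher at E10.5. Of the 4 hindlimb markers, Pitx1 and Hoxc11 stayed under 10 reads in every embryo, as did the cardiac genes Nkx2-5, Nppa and Myh6. Isl1, the 1 hindlimb marker that was tested, was called higher in mutants at E10.0, and the 4 markers summed to 1.75 to 2.38 CPM in these mutants against 0.836 to 1.39 CPM in wild types. Of 4 tested macrophage markers, Cx3cr1 and Ptprc were called higher in mutants at E10.0. All 4 were called higher at E10.5 than at E10.0 in both genotypes, against 5.39% of all genes in wild types and 10.8% in mutants. Mutant replicates 4 and 5 of both stages stood apart by their share of ribosomal RNA precursor reads, 1.72% to 8.05% against 0.151% to 0.478% in the other 10 embryos. As these 4 libraries were all mutant, results are also given without them. At E10.0, 3 of 5 tested mesothelium markers (Wt1, Upk3b and Lrrn4) were higher in mutants, and the 6 markers of this list summed to 15.8 to 29.6 CPM in mutants against 8.27 to 11.6 CPM in wild types. At E10.5 the same sum was 6.38 to 10.3 CPM in mutants and 11.0 to 13.8 CPM in wild types, with Wt1 and Upk3b lower in mutants and Msln under 10 reads in every embryo. The part of these cells in the results below was not tested.

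Promoter sequences are shown first for the 3 genes that had a RefSeq window at hand and were called between genotypes in at least 1 stage. The genes are Tbx4 and Tbx18, higher in mutants at E10.5, and Tbx19, with reads in mutant embryos and in no wild type. Each sequence is the run of 250 bases before the annotated RefSeq start (build GRCm38.p6), on the strand of the gene. Tbx4 lies on the plus strand at chr11:85896515-85896764, Tbx18 on the minus strand at chr9:87731261-87731510 and Tbx19 on the minus strand at chr1:165160774-165161023.
Tbx4: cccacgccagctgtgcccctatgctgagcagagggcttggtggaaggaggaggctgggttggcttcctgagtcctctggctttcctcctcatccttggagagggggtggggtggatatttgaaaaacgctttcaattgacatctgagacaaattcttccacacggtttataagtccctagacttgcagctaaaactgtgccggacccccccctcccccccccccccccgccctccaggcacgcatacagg
Tbx18: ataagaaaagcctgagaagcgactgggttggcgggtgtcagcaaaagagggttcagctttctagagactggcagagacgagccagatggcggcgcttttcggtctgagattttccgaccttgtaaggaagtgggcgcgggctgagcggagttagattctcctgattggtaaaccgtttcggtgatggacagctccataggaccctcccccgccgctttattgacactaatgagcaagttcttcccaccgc
Tbx19: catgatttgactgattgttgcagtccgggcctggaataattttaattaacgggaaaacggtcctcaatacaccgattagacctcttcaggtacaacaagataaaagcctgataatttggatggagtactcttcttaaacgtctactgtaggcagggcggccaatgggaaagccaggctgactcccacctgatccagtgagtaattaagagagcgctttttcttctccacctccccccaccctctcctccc
The windows were searched on both strands for the SMAD elements GGCGCC and CAGACA and for the T-box element AGGTGTG, together with the 50 bases after each start. None of these letters occurred in the windows of Tbx4, Tbx18 and Tbx19, and the sequences are therefore printed without capitals. RefSeq windows were at hand for 5 of the 9 genes, Tbx1, Tbx4, Tbx18, Tbx19 and Tbx20, and the only match among them was GGCGCC in Tbx20, starting at base 259 of 300 and hence just after the start. Of 32851 promoter windows of the same length, 11.87% held GGCGCC, 21.04% held CAGACA and 5.845% held AGGTGTG. A missing match says only that these letters are not in this window.

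In the genome, 4 of the 9 genes form 2 neighbouring pairs (mm9 coordinates). Tbx2 (chr11:85646053-85655450) and Tbx4 (chr11:85699924-85729599) are both on the plus strand, with 44473 bp between them. Tbx3 (chr5:120120678-120134733) and Tbx5 (chr5:120284672-120335227) are both on the plus strand as well, with 149938 bp between them. Tbx15 lies at chr3:99044304-99158182 on the plus strand, Tbx18 at chr9:87597635-87626095, Tbx20 at chr9:24527648-24578746, Tbx1 at chr16:18581806-18588113 and Tbx19 at chr1:167067986-167090904, all 4 on the minus strand. Reads were counted without regard to strand, and in the mm9 annotation 1 transcript on the opposite strand, Gm2301, overlaps a T-box gene, Tbx3, at its 5′ end. Gm2301 has no row of its own in the counts, so that its reads cannot be told apart from those of Tbx3 where both overlap.

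To compare levels between genes, CPM were divided by the exon length in kb. On this scale the order was led in all 4 groups by Tbx15, then Tbx5, Tbx18 and Tbx3. In wild types at E10.0, Tbx15 had 43.4 ± 6.65 CPM per kb (SD, n=3) and Tbx5 had 28.2 ± 3.13 CPM per kb. Tbx18, with 12.6 ± 2.34 CPM per kb, and Tbx3, with 12.0 ± 0.834 CPM per kb, overlapped between embryos and did not differ beyond their spread. Tbx2 followed with 5.59 ± 0.371 CPM per kb, and Tbx4 with 0.959 ± 0.448 CPM per kb. Tbx1 had 0.266 ± 0.0642 CPM per kb, Tbx20 had 0.0137 ± 0.0100 CPM per kb, and Tbx19 had no read.

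In mutants at E10.5, Tbx15 had 92.6 ± 1.78 CPM per kb (SD, n=4), Tbx5 had 33.4 ± 2.75 CPM per kb, Tbx18 had 27.6 ± 1.95 CPM per kb, and Tbx3 had 8.91 ± 0.782 CPM per kb. Here Tbx4 (3.98 ± 0.500 CPM per kb) and Tbx2 (3.77 ± 0.483 CPM per kb) overlapped between embryos. In wild types of this stage, Tbx2 with 7.07 to 8.24 CPM per kb did not overlap with Tbx4 at 1.94 to 2.51 CPM per kb.

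**Figure D1:**
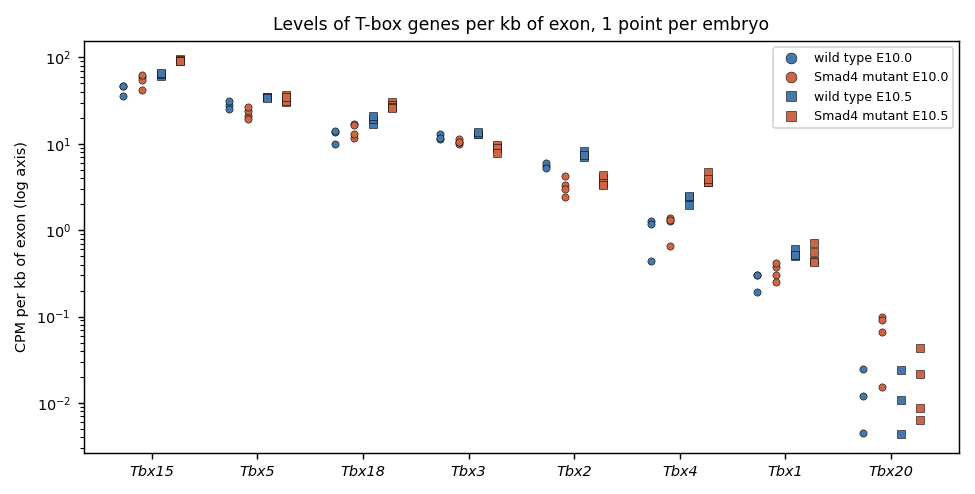
Level of each T-box gene with reads in every embryo, in CPM per kb of exon on a log axis, with 1 point per embryo and the 4 groups side by side within each gene. Tbx15 was highest in each group, and Tbx20, the lowest of those drawn, reached 0.10 CPM per kb at most.

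Genotypes were compared over 12393 genes by the exact test of edgeR, with P adjusted after Benjamini and Hochberg, and a gene was called at an adjusted P of at most 0.1 with a fold change of at least 1.2. Of the 9 T-box genes, 8 were tested. Tbx20 was under the filter of 1 CPM in 3 embryos. Tbx19 passed it only through mutant embryos and Tbx1 only through embryos of E10.5, so both are left out of the counts here and described with the rare genes. The other 6 averaged at least 1 CPM over the 14 embryos. At E10.0, 1 of these 6 genes was called higher in mutants (Tbx15) and 2 lower (Tbx2 and Tbx5), against 3.33% of all genes called higher and 3.28% called lower. With the ribosomal RNA precursor left out of the library sizes, the calls over all genes shifted from 413 higher and 406 lower to 519 higher and 313 lower. At E10.5, 3 were called higher (Tbx4, Tbx15 and Tbx18) and 2 lower (Tbx2 and Tbx3), against 2.19% and 1.54% of all genes. The median log2 change of the 6 genes was 0.015 at the earlier stage and 0.25 at the later one, and that of all genes tested was -0.017 and -0.010.

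Tbx2, a transcriptional repressor whose expression follows BMP signals in several tissues, was lower in mutants at both stages. At E10.0 it had 19.8, 21.8 and 19.2 CPM in wild-type replicates 1, 2 and 3 and 8.77, 12.1, 15.2 and 10.9 CPM in mutant replicates 1, 3, 4 and 5. Every mutant was below every wild type. Here and below, such separation is description only, as the share of all genes tested that separate was not counted. The log2 fold change was -0.79 (SE 0.173, adjusted P=1.99e-05), a 1.73-fold reduction. At E10.5 Tbx2 had 25.6, 29.9 and 27.1 CPM in wild-type replicates 1, 2 and 3 and 12.3, 14.5, 15.7 and 12.2 CPM in mutant replicates 1, 2, 4 and 5. Again the groups did not overlap, and the log2 fold change was -1.01 (SE 0.112, adjusted P=3.11e-09). Without mutant replicates 4 and 5, the reductions were as large, with log2 fold changes of -0.94 and -1.03.

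Tbx3, the closest relative of Tbx2 and likewise a repressor, was lower in mutants at E10.5. There it had 69.2, 69.0 and 74.1 CPM in wild-type replicates 1, 2 and 3 and 49.5, 52.0, 47.6 and 42.1 CPM in mutant replicates 1, 2, 4 and 5, without overlap. The log2 fold change was -0.56 (SE 0.0729, adjusted P=2.09e-07), and it was -0.47 without mutant replicates 4 and 5 (adjusted P=4.65e-05). At E10.0 the wild types had 60.5, 69.1 and 62.7 CPM and the mutants 53.0, 56.9, 61.6 and 56.6 CPM. The highest mutant lay within the wild-type range, and the log2 fold change of -0.17 did not pass the test (SE 0.0726, adjusted P=0.323). Whether the genotype difference changed between the stages was asked by an interaction term in edgeR's quasi-likelihood test. For Tbx3 the difference grew by -0.40 on the log2 scale (SE 0.103), which did not pass adjustment (unadjusted P=0.00268, adjusted P=0.385). With DESeq2 in place of edgeR the same term passed, with a log2 change of -0.41 (adjusted P=0.0698).

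Tbx5, the forelimb identity and initiation factor, was slightly lower in mutants at E10.0. Wild-type replicates 1, 2 and 3 gave 112, 98.6 and 123 CPM, whereas mutant replicates 1, 3, 4 and 5 gave 82.5, 76.7, 95.3 and 105 CPM, so that replicate 5 overlapped with the wild types. The log2 fold change was -0.31 (SE 0.139, adjusted P=0.0698). This call was lost under 4 of 9 other settings, on leaving out mutant replicate 1 or 3 or wild-type replicate 1 or 3 of this stage (log2 fold changes -0.30 to -0.22, adjusted P up to 0.542), and without wild-type replicate 3 of E10.5 (adjusted P=0.103). Without mutant replicates 4 and 5, the value was -0.47 (adjusted P=0.000106). At E10.5 the wild types had 136, 136 and 134 CPM and the mutants 121, 124, 144 and 138 CPM. The mutants spread on both sides of the wild types, and the log2 fold change of -0.039 did not pass the test (SE 0.0595, adjusted P=0.977).

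Tbx4, the hindlimb counterpart of Tbx5, was detected in forelimb buds at a low level in all embryos, with 74 to 695 reads. At E10.5 it had 6.60, 8.26 and 8.53 CPM in wild-type replicates 1, 2 and 3 and 12.3, 12.4, 16.0 and 13.4 CPM in mutant replicates 1, 2, 4 and 5. Every mutant was above every wild type, and the log2 fold change was 0.79 (SE 0.144, adjusted P=0.0955). The call stood just inside the threshold: it was lost on leaving out any single embryo of this stage (log2 fold change 0.69 to 0.87), and without mutant replicates 4 and 5 (0.68, adjusted P=0.307), with the quasi-likelihood test (adjusted P=0.229) or with no low-count filter (adjusted P=0.128). At E10.0 the wild types had 4.29, 1.51 and 3.98 CPM and the mutants 4.32, 2.21, 4.69 and 4.50 CPM. Replicate 2 of the wild type and replicate 3 of the mutants were low, and the log2 fold change of 0.26 did not pass the test (SE 0.540, adjusted P=0.679). Of the hindlimb markers, Pitx1 had at most 7 reads in any embryo, Hoxc11 at most 1 and Hoxc10 between 13 and 62. Isl1, which acts upstream in the hindlimb field, had 0.374 to 1.001 CPM in wild types and 1.15 to 1.94 CPM in mutants at E10.0 (log2 fold change 1.32, SE 0.433, adjusted P=0.0300), and the genotypes overlapped at E10.5 (0.064, SE 0.701, adjusted P=0.996). The part of these markers in the Tbx4 values was not tested.

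Tbx15, a mesenchymal factor with a role in the limb girdle skeleton, was higher in mutants. At E10.5 it had 229, 238 and 245 CPM in wild-type replicates 1, 2 and 3 and 354, 351, 340 and 343 CPM in mutant replicates 1, 2, 4 and 5. The groups were far apart and narrow, and the log2 fold change was 0.55 (SE 0.0314, adjusted P=0.000415). At E10.0 the wild types had 177, 134 and 177 CPM and the mutants 223, 156, 204 and 232 CPM, with mutant replicate 3 below 2 of the wild types. The log2 fold change of 0.33 was called (SE 0.186, adjusted P=0.0907), but the call was lost without mutant replicates 4 and 5 (0.24, adjusted P=0.218) and under 3 of the other 8 settings. It was also lost without mutant replicate 1, 4 or 5 or wild-type replicate 2 or 3 of this stage (0.20 to 0.40) and without mutant replicate 4 or 5 of E10.5 (0.33, adjusted P=0.103 for both).

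Tbx18, which groups with Tbx15 by sequence and is known from the epicardium and somites as well as the limb, showed the same difference at the later stage. Wild-type replicates 1, 2 and 3 gave 78.4, 90.9 and 99.0 CPM, whereas mutant replicates 1, 2, 4 and 5 gave 141, 132, 124 and 120 CPM. All mutants were above all wild types, with a log2 fold change of 0.53 (SE 0.111, adjusted P=0.00544). Without wild-type replicate 1 the call was lost (0.45, adjusted P=0.118). At E10.0 the wild types had 64.7, 46.4 and 66.0 CPM and the mutants 78.6, 54.1, 61.3 and 76.9 CPM, and the log2 fold change of 0.20 did not pass the test (SE 0.210, adjusted P=0.465). Of 5 tested mesothelium markers, 3 were called higher in mutants at E10.0 and 2 lower at E10.5 (3.33% and 1.54% over all genes). Wt1 was among both sets of markers (log2 fold change 2.38, adjusted P=5.53e-07, and -1.42, adjusted P=0.00567). Of the sclerotome and somite markers, Pax1 was called lower in mutants at both stages (log2 fold changes -2.87 and -2.61). Over all genes, 3.28% and 1.54% were called lower. Meox1 was called higher at E10.0 (3.33% over all genes). The 5 markers summed to 35.9 to 44.5 CPM in wild types and 19.8 to 23.1 CPM in mutants at E10.5. At E10.0 these sums overlapped between the genotypes. The part of mesothelium or somite cells in the Tbx18 values was not tested.

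**Figure D2:**
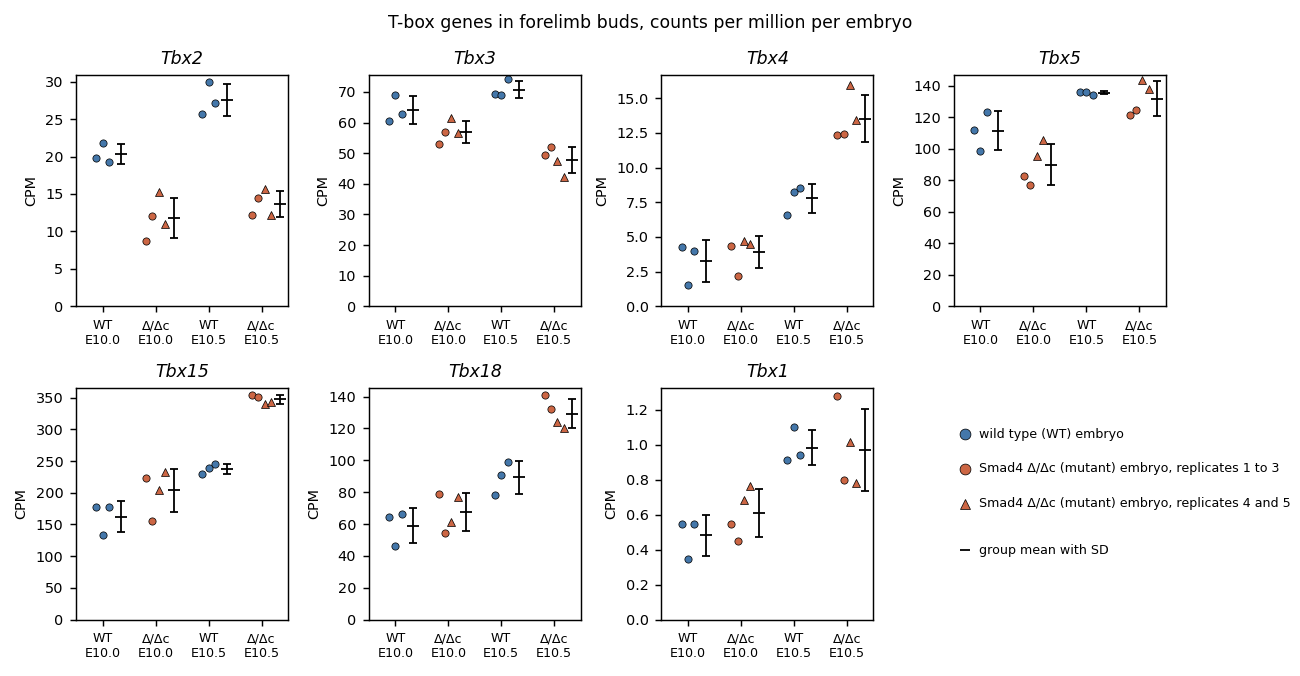
CPM of 7 T-box genes in each of the 14 embryos (points; triangles are mutant replicates 4 and 5), with the mean and SD of each group as bars to the right. Tbx2 separated the genotypes at both stages, with every mutant at or below 15.7 CPM and every wild type at or above 19.2 CPM. Tbx3, Tbx4, Tbx15 and Tbx18 separated them at E10.5.

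Next, the stages were compared within each genotype. In wild types, 4 of the same 6 T-box genes were called higher at E10.5 (Tbx2, Tbx4, Tbx15 and Tbx18) and none lower, against 5.39% of all genes called higher and 4.74% called lower. In mutants, 4 were called higher (Tbx4, Tbx5, Tbx15 and Tbx18) and none lower, against 10.8% and 8.40% of all genes. By DESeq2, no T-box gene was called lower with stage in either genotype either. In edgeR's exact test 1 of them, Tbx3 in mutants, had a negative change at an unadjusted P under 0.05 (P=0.00320). The median log2 change over the 6 genes was 0.49 in wild types and 0.66 in mutants, against -0.0086 and -0.0050 for all genes tested. Each stage comparison shares its samples with the genotype comparisons, and values are therefore set side by side without an overlap being counted.

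Tbx4 rose most among the genes called. The log2 change from E10.0 to E10.5 was 1.26 in wild types (SE 0.490, adjusted P=0.000894) and 1.79 in mutants (SE 0.268, adjusted P=3.03e-10). The 2.39-fold change in wild types rested partly on the low replicate 2 at E10.0, and it was 0.91 on the log2 scale without that embryo. Tbx15 changed by 0.55 in wild types (SE 0.137, adjusted P=0.000716) and by 0.77 in mutants (SE 0.129, adjusted P=2.29e-10). Tbx18 changed by 0.60 in wild types (SE 0.192, adjusted P=0.00137) and by 0.93 in mutants (SE 0.140, adjusted P=1.21e-11). For these 3 genes, the E10.0 and E10.5 embryos of a genotype did not overlap, a separation whose share over all genes was not counted.

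Tbx5 changed by 0.55 in mutants (SE 0.118, adjusted P=1.07e-06), and all mutants of E10.5 were above all mutants of E10.0. In wild types its log2 change was 0.28, which did not pass the threshold although the stages did not overlap (SE 0.0934, adjusted P=0.112). It was called under 3 of 9 other settings and on leaving out any 1 of 5 embryos, namely wild-type replicate 3 and mutant replicates 1, 3 and 5 of E10.0 and mutant replicate 1 of E10.5. Tbx2 rose in wild types, by 0.44 on the log2 scale (SE 0.0844, adjusted P=0.0618). In mutants its log2 change of 0.22 was not called and the stages overlapped (SE 0.188, adjusted P=0.296), but it was called without mutant replicate 4 of E10.0 (0.37, adjusted P=0.0372). The wild-type call of Tbx2 was lost on leaving out replicate 1, 2 or 3 of E10.0 or replicate 2 or 3 of E10.5 (log2 changes 0.38 to 0.50) and with the quasi-likelihood test (adjusted P=0.106).

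Tbx3 did not follow the others. In wild types its log2 change with stage was 0.14 and not called (SE 0.0663, adjusted P=0.413). In mutants it was -0.25, with all E10.5 embryos below all E10.0 embryos (SE 0.0787, adjusted P=0.0221). This 1.19-fold reduction was under the fold threshold of 1.2 and hence not called. With mutant embryos of the same replicate number treated as pairs, the log2 change was -0.29 and passed both thresholds (replicate block within mutants, adjusted P=0.0322), although embryos with different numbers correlated as well (r=0.383 for replicate 4 of E10.0 with replicate 5 of E10.5). It also passed both without mutant replicate 1 of E10.0 and without mutant replicate 1 or 2 of E10.5. With only mutant replicates 1 to 3, it was -0.11 (adjusted P=0.544).

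The interaction of stage and genotype, by the quasi-likelihood test of edgeR, was called for 0 of the same 6 genes and for 0.186% of all genes. At an unadjusted P under 0.05 there was 1, Tbx3, which was also the 1 gene called by DESeq2. The change of the genotype difference from E10.0 to E10.5 was 0.54 for Tbx4 (SE 0.559), 0.33 for Tbx18 (SE 0.237), 0.27 for Tbx5 (SE 0.151), 0.22 for Tbx15 (SE 0.189) and -0.22 for Tbx2 (SE 0.206) on the log2 scale, with adjusted P of 0.940 to 0.955. Single embryos of E10.0 moved these values: Tbx4 was 0.28 without wild-type replicate 1 and 0.88 without replicate 2, Tbx15 was 0.11 without mutant replicate 3 and 0.34 without wild-type replicate 2, and Tbx2 was -0.34 without mutant replicate 1 and -0.076 without replicate 4. A genotype difference called at 1 stage and not at the other was therefore not shown to differ between the stages.

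**Figure D3:**
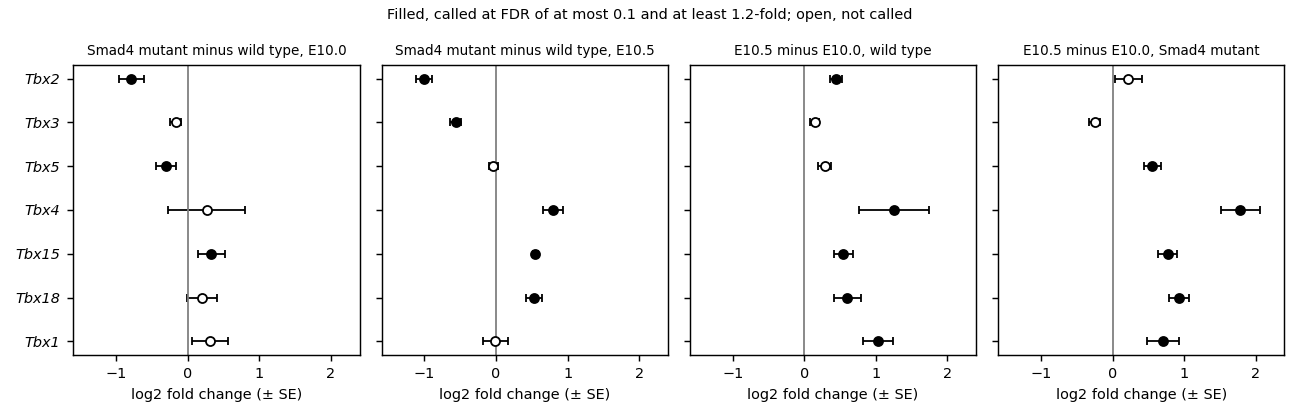
Log2 fold changes with SE (horizontal bars) of 7 T-box genes, 1 panel per comparison. Filled points were called and open points were not. Tbx1 passed the filter only through embryos of E10.5, so its stage calls are no independent evidence of a rise. Tbx2 was called lower in both genotype panels, at -0.79 and -1.01, and Tbx4 had the largest stage changes of the genes drawn, 1.26 in wild types and 1.79 in mutants.

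The rare genes were read embryo by embryo. Tbx1, a regulator of pharyngeal arch and myogenic development, had 17 to 72 reads per embryo. At E10.0 the wild types averaged 0.482 ± 0.116 CPM (SD, n=3) and the mutants 0.610 ± 0.139 CPM (SD, n=4). At E10.5 the averages were 0.984 ± 0.101 and 0.969 ± 0.233 CPM. The genotypes overlapped at both stages, and the log2 fold changes of 0.31 (SE 0.255, adjusted P=0.646) and -0.0087 (SE 0.179, adjusted P=1) did not pass the test. Its rise with stage was called in wild types (log2 change 1.03, SE 0.216, adjusted P=0.0172) and in mutants (0.71, SE 0.225, adjusted P=0.0480). Because Tbx1 passed the filter only through the E10.5 embryos in which it was higher, its stage calls are no independent evidence of a rise. The wild-type call was lost without replicate 2 of E10.0 (0.84, adjusted P=0.215), and the mutant call without replicate 1 (0.66, adjusted P=0.106) or replicate 3 (0.58, adjusted P=0.188) of E10.0.

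Tbx19, the pituitary factor also known as TPIT, had 0 reads in all 6 wild-type embryos. Over the 154594446 reads of the 3 wild types at E10.0, 0 reads allow up to 3 reads, or 0.0194 CPM, for counting error only. Mutant replicates 1, 3, 4 and 5 of this stage had 111, 199, 0 and 102 reads. Thus 3 of 4 mutants had reads and the fourth had none, and the summed level of the mutants was 104-fold this limit. The exact test called the difference (adjusted P=7.37e-05), but the quasi-likelihood test (adjusted P=0.121) and DESeq2 (adjusted P=0.135) did not. Because Tbx19 passed the filter only through mutant embryos, its genotype calls at either stage are no independent evidence of a difference. At E10.5 the mutant replicates 1, 2, 4 and 5 had 131, 0, 0 and 1 reads, so that 99.2% of the reads came from 1 embryo. The exact test called this as well (adjusted P=0.00317), and the call was lost without replicate 1 (adjusted P=1), with the quasi-likelihood test (adjusted P=0.441) and with DESeq2 (adjusted P=0.438). Between the mutant stages the exact test made no call (adjusted P=0.233), but it did without replicate 1 of E10.5 (adjusted P=5.97e-08).

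The 4 embryos with at least 20 Tbx19 reads included libraries of both stages and both with low and with high shares of ribosomal RNA precursor. No other of the 23284 symbols had at least 20 reads in each of these 4 embryos and at most 20% of its lowest value there in the other 10. Of the 5 annotated neighbours within 250000 bp of Tbx19, Xcl1 had no reads and Sft2d2, Tiprl, Gpr161 and Dcaf6 were read in every embryo, with overlapping ranges in the 4 and the other 10. For Sft2d2, the closest of them, these ranges were 1211 to 2403 reads and 1154 to 2361 reads. The mm9 annotation places a pseudogene, Gm16550 (chr1:167078955-167079080), inside Tbx19 on the same strand. It has no row in the counts, and reads from it could have been counted for Tbx19 only where they fell on Tbx19 exons.

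Tbx20, a cardiac factor, had 91 reads in all 14 embryos together. At E10.0 the wild types had 3, 1 and 5 reads and the mutants 4, 26, 15 and 12 reads, and at E10.5 the wild types had 2, 1 and 5 reads and the mutants 11, 2, 1 and 3 reads. Mutant replicates 3, 4 and 5 of E10.0 stood above all wild types, while replicate 1 lay within their range in CPM. The mutants averaged 0.306 ± 0.171 CPM (SD, n=4) and the wild types 0.0617 ± 0.0452 CPM (SD, n=3) at E10.0, a difference of 0.244 CPM (two-sided exact permutation test P=0.114, adjusted P=0.229 over 4 comparisons). At E10.5 the difference was 0.0311 CPM (exact permutation P=0.743, adjusted P=0.743). Between the stages it was -0.215 CPM in mutants (exact permutation P=0.0857, adjusted P=0.229) and -0.00274 CPM in wild types (exact permutation P=0.700, adjusted P=0.743). The smallest P is 0.0286 between the mutant stages and 0.1 between the wild-type stages, so that the last could not reach 0.05. The genotype tests, of 4 mutants and 3 wild types, could not reach 0.05 either, because the smaller tail is doubled. The mesothelium marker Upk3b had 183, 481, 205 and 115 reads in mutant replicates 1, 3, 4 and 5 of E10.0 against 34, 35 and 5 reads in wild types. Among these mutants, replicate 3 had the most reads of both genes, and replicate 1, above all wild types of this stage for Upk3b, had few of Tbx20. The part of mesothelium in the Tbx20 reads was not tested. The cardiac markers summed to 0.718 to 1.28 CPM in these mutants and 0.704 to 0.878 CPM in the wild types of E10.0.

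**Figure D4:**
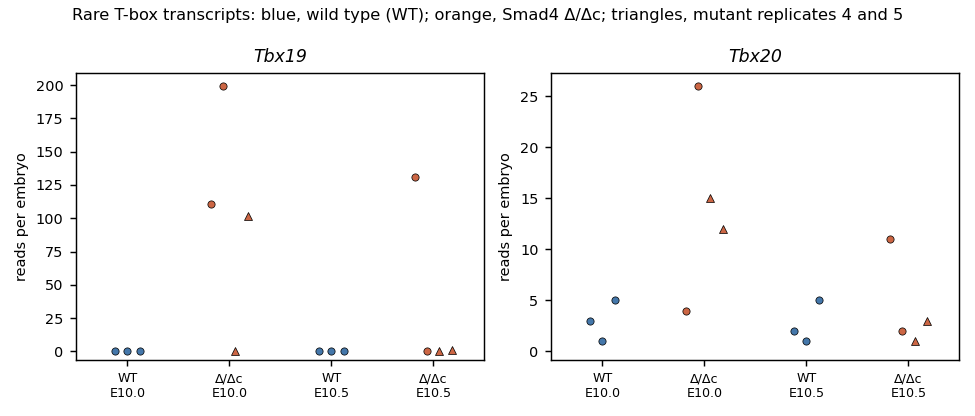
Reads per embryo of Tbx19 (left) and Tbx20 (right) by group, not normalized. Tbx19 had over 100 reads in 4 mutant embryos and at most 1 in the other 10, and Tbx20 had 26 reads at most.

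Of the other 8 T-box family genes, 2 were tested, and neither was called in any comparison. T (brachyury) had 19 to 62 reads per embryo, and at E10.5 its mutants, with 0.746 to 1.21 CPM, were all above the wild types, with 0.437 to 0.744 CPM (log2 fold change 0.87, SE 0.263, adjusted P=0.223). Mga, a large factor with both a T-box and a MAX-binding domain, had 123 to 221 CPM and differed by 0.35 at E10.0 (SE 0.192, adjusted P=0.139) and by 0.14 at E10.5 (SE 0.172, adjusted P=0.881) on the log2 scale. Eomes, Tbr1, Tbx6, Tbx10 and Tbx21 had at most 27 reads in any embryo, and Tbx22 had at most 21.

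The genes around the T-box factors in the limb bud were read from lists. Of 12 partners and targets of T-box factors, 11 were tested. At E10.0, 2 of these 11 were called lower in mutants and none higher (3.28% and 3.33% over all genes), and the list's median log2 change was 0.033 against -0.017 for all genes. The same 2, Grem1 and Alx4, were called lower at E10.5 (1.54% over all genes), with a median of -0.13 against -0.010. Grem1, the BMP antagonist of the SHH and ridge feedback loop, had 26.3, 18.3 and 24.9 CPM in wild-type replicates 1, 2 and 3 and 9.88, 8.56, 9.99 and 11.4 CPM in mutant replicates 1, 3, 4 and 5 at E10.0. Its groups did not overlap, and the log2 fold change was -1.22 (SE 0.182, adjusted P=1.73e-15), and -1.09 at E10.5 (SE 0.112, adjusted P=9.34e-13). Alx4, an anterior homeobox gene, had log2 fold changes of -0.36 (SE 0.135, adjusted P=0.0329) and -0.45 (SE 0.0641, adjusted P=0.00310). Fgf10, the mesenchymal growth factor downstream of Tbx5, had log2 fold changes of 0.11 (adjusted P=0.574) and -0.15 (adjusted P=0.632), neither of which passed the test. Between the stages, Sall1 and Wwtr1 were called higher and Sall4 lower in both genotypes. Cdkn1a was also called higher in wild types. In mutants, Grem1 was also called higher, and Fgf10 and Gli3 were called lower. Over all genes, 5.39% were called higher and 4.74% lower in wild types, and 10.8% and 8.40% in mutants.

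All 11 BMP ligands and response genes were tested. At E10.0, 6 were called lower in mutants (Id1, Id2, Id3, Msx2, Smad6 and Smad7) and 1 higher (Bmp4), against 3.28% and 3.33% of all genes. The list's median log2 change was -0.44 against -0.017 for all genes. At E10.5 the same 6 were called lower and Bmp2 and Bmp4 higher, against 1.54% and 2.19% of all genes. The median was then -0.51 against -0.010 for all genes. Msx2, a homeobox target of BMP signals, fell by 1.05 (SE 0.247, adjusted P=2.00e-07) and then, at E10.5, by 1.66 (SE 0.124, adjusted P=2.09e-18) on the log2 scale. The fall of Tbx2, by 0.79 and 1.01, lay between that of Id2, which fell by 0.41 and 0.64, and that of Id1, which fell by 1.24 and 1.33. These genes were listed with earlier results of these samples known, and their direction is no independent evidence.

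The 9 inputs to Tbx5 in the forelimb field were retinoic acid synthesis, Meis genes and Hox4 and Hox5 genes. Of these, Aldh1a2 was called higher and Hoxb5 lower in mutants at E10.0, against 3.33% and 3.28% of all genes. The list's median log2 change was -0.023 against -0.017 for all genes. At E10.5, Aldh1a2 was called lower and none higher, against 1.54% and 2.19% of all genes. The median was then -0.16 against -0.010 for all genes. Aldh1a2, which makes retinoic acid and is also found in mesothelium, had log2 fold changes of 2.27 (SE 0.350, adjusted P=1.90e-14) and -1.20 (SE 0.269, adjusted P=0.000157). Its interaction of stage and genotype was called (-3.45, adjusted P=0.00329). Between the stages, 7 of the 9 inputs were called lower at E10.5 in mutants, against 8.40% of all genes, and 2 lower (Hoxb4 and Hoxb5) and 1 higher (Aldh1a2) in wild types, against 4.74% and 5.39%.

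The genes with the most similar pattern to each called T-box gene were found by the root mean square (RMS) difference of centred log2(CPM + 1) values over the 14 embryos, as a description without a test. For Tbx15 the closest of all genes tested was Tbx18, and for Tbx18 it was Tbx15, with an RMS difference of 0.104 where their own spreads were 0.434 and 0.478. Rftn2 followed for both, at 0.111 and 0.105. For Tbx4 the closest were Hoxd12 (0.177), Fbxo41 (0.184) and Robo2 (0.211), against an own spread of 0.803. For Tbx2 they were Thbs2 (0.226), Glis1 (0.242) and Gsc (0.257), against 0.487, and for Tbx3 they were Fgfr3 (0.0720), Fgfr2 (0.119) and Cdk5r1 (0.123), against 0.225. For Tbx5 they were Rarg (0.0819), B230312A22Rik (0.0910) and Sema6c (0.0933), against 0.275. For Tbx1, whose low level compresses this scale, they were Pitpnc1 (0.0741), Tnfaip6 (0.0851) and Zfp28 (0.0880), against 0.209. Tbx19 had no close match, since Ano1, Mdn1 and Birc6 were nearest at 0.574 to 0.593 against an own spread of 0.823. Neighbours in the genome were not among the closest patterns, as neither Tbx2 with Tbx4 nor Tbx3 with Tbx5 appeared in the lists of 3.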

How the data were processed

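RNA was measured in 14 samples, each both forelimb buds of 1 embryo, from polyA libraries sequenced as single reads. The authors aligned reads to mm9 with TopHat2 2.0.13 and counted unique reads per gene symbol with HTSeq without strand. The deposited values are raw counts, of which 34066930 to 61691258 per sample fell on genes. Leaving out 1041 symbols of chromosomes X, Y and M and requiring 1 CPM or more in 3 or more samples, 12393 genes could be tested. TMM factors, common and tag-wise dispersions (prior df 10) and exact tests were computed with edgeR 4.0.16 (R 4.3.3) and the settings of the paper's methods, with calls at a Benjamini-Hochberg FDR up to 0.1 and a change of 1.2-fold or more. Fitting all 14 samples together was chosen here. The interaction used edgeR's quasi-likelihood test at the same FDR. SE of log2 changes came from log2 CPM (prior count 2) of the embryos.

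Exon lengths and positions came from the mm9 annotation of GENCODE, and promoter windows from RefSeq (GRCm38.p6). Tbx20 was tested by exact two-sided permutation (SciPy 1.17.1). Alternatives were DESeq2 1.42.0, the quasi-likelihood test, other scalings and filters, each pair of groups fitted apart, a replicate block, and samples left out. The scripts were tested on simulated data. No 2 replicates were alike within sampling noise (chi-square over degrees of freedom at least 12.2). Labels give genotypes shared replicate numbers. Same-numbered mutant embryos of E10.0 and E10.5 deviated together (r=0.572, 0.611 and 0.269 for numbers 1, 4 and 5), and the pairing comes from this correlation, not from the labels. Embryos with different numbers correlated as well within numbers 1 to 3 (r=0.349 and 0.319 with replicate 2 of E10.5) and within 4 and 5 (0.383 and 0.286), so that number 5 did not correlate best with its own. In the other comparisons the correlations were -0.283 to 0.174 for embryos of the same number and -0.316 to 0.377 for different numbers. The samples there were taken as unpaired.

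The T-box genes, the gene lists and the tests were chosen with earlier results of these data known. All 9 T-box genes are named. Of the other genes, those named are Smad4, listed genes that were called or on which a sentence turns, and the 3 genes most like each called T-box gene. The text also names neighbours and overlapping genes of Tbx3 and Tbx19, chosen after their values were seen.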

Additional observations from a re-analysis of the deposited data

Results flagged for a closer look

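In groups of 4 embryos, 2 of 18 sets of T-box values held an embryo far from the other 3 by Dixon's test at the 95% level, which chance gives in about 1 of 20 groups. Tbx4 was at 2.21 CPM in mutant replicate 3 of E10.0, with the other 3 mutants at 4.32 to 4.69 CPM. Tbx19 was at 2.33 CPM in mutant replicate 1 of E10.5, where the other 3 mutants had 0, 0 and 1 reads.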

How the results depend on the processing

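The genotype calls of Tbx2 at both stages and of Tbx3 at E10.5, and the stage calls of Tbx4, Tbx15 and Tbx18 in both genotypes and of Tbx5 in mutants, held under every alternative that was run. Over 859 recomputed values of single T-box genes, 789 kept their direction and call, 49 lost the call, 16 gained one and 5 reversed. The 789 include results that were uncalled and stayed so, and fits that left out embryos of groups outside the comparison. They are therefore no measure of how stable the calls were. The reversed values were all of results without a call. With each embryo left out in turn, Tbx4 at E10.0 ranged from -0.081 (without wild-type replicate 2) to 0.52, Tbx5 at E10.5 from -0.083 to 0.0082 (without mutant replicate 1), and Tbx1 at E10.5 from -0.053 to 0.093 (without mutant replicate 2; 0.070 without mutant replicate 5). Tbx1 at E10.5 was 9.73e-06 with the ribosomal RNA precursor left out of the library sizes. Where Tbx1 fell under the filter, no value was computed. Over all genes, leaving out each embryo in turn gave 254 to 1062 calls for genotype at E10.0 against 819, 286 to 516 at E10.5 against 462, 484 to 1515 for stage in wild types against 1256, 1895 to 2732 in mutants against 2374, and 7 to 34 for the interaction against 23. The lowest were without wild-type replicate 3 of E10.0, wild-type replicate 2 of E10.5, wild-type replicate 2 of E10.0, mutant replicate 3 of E10.0 and mutant replicate 5 of E10.5. With only replicates numbered 1 to 3, there were 2018 genotype calls at E10.0 and 6 for the interaction. The interaction had 87 calls with DESeq2 and 39 with no low-count filter, and stage in wild types had 1932 with each pair of groups fitted apart; the cause was not tested.

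A replicate block over all samples gave 1961 genotype calls at E10.0 and 280 at E10.5. Under it Tbx15 at E10.0 (0.26) and Tbx4 (0.58), Tbx15 (0.49), Tbx18 (0.55) and Tbx19 at E10.5 had no genotype call, Tbx5 gained one with stage in wild types, and Tbx3 gained one with stage in mutants. The pairing changed no other call of a T-box gene. The block within mutants alone was chosen after seeing the data and gave 2134 stage calls. At 17 to 72 reads per embryo for Tbx1 and 1 to 26 for Tbx20, only large differences could be detected.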
